A study of Homo sapiens with 6 samples.

Results

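The platelet-derived growth factor (PDGF) family was described in MDA-MB-231, a human cell line established from a triple negative breast cancer (TNBC), with and without knockdown of the coregulator PELP1. The family was taken by gene symbol as the 4 ligand genes PDGFA, PDGFB, PDGFC and PDGFD and the 2 receptor genes PDGFRA and PDGFRB, which are 6 of the 23228 genes listed in the count tables. RNA-seq covered 3 libraries from cells stably expressing a non-targeted control shRNA and 3 from cells stably expressing a PELP1 shRNA (PELP1-KD cells), all selected with puromycin and grown in RPMI medium with 10% FBS. The study's methods name a single PELP1 shRNA, so that an effect of this hairpin on other transcripts cannot be told apart from an effect of PELP1. No source says that the replicates came from separate selections or cultures, so p-values measure the spread between these libraries, which may be technical. The family was selected on the difference in its read counts between the PELP1-KD and control libraries, which was already known. That difference is therefore a description for the 6 genes. No p-value is given for them, and where a member is said to lie past the threshold of the fit across all genes, this places it among the tested genes and is not independent evidence of a difference.

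PDGFs are secreted dimers that drive the growth and movement of mesenchymal cells. PDGF-A and PDGF-B are cleaved inside the cell by furin-type proteases, whereas PDGF-C and PDGF-D leave the cell as latent proteins whose CUB domain must be cut off outside it, by tissue plasminogen activator for PDGF-C and by urokinase or matriptase for PDGF-D. The receptors PDGFRα and PDGFRβ are receptor tyrosine kinases that signal as dimers to the Ras-MAPK, PI3K-Akt and phospholipase C-gamma pathways. PDGFRα binds PDGF-A, PDGF-B and PDGF-C, while PDGFRβ binds chiefly PDGF-B and PDGF-D, and PDGF-C engages PDGFRβ only within a heterodimer with PDGFRα. In normal breast the receptors mark stromal fibroblasts and pericytes, and in carcinoma cells PDGFRβ is known as a feature of mesenchymal change.

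The promoters of the receptor genes are shown because one of these genes was read in every library and the other nearly not at all. Each window runs from 250 bases before to 50 bases after an annotated start, on GRCh38.p14 from RefSeq. Capitals mark matches on either strand to the GC box GGGCGG (reverse complement CCGCCC), a motif for Sp-family factors, and to the CCAAT box (CCAAT or ATTGG), a motif for NF-Y; no marked match overlapped another in these windows. PDGFRB has 1 window, chr5:150155796-150156095 on the minus strand, and PDGFRA has 2, chr4:54229043-54229342 (upstream) and chr4:54233710-54234009 (downstream) on the plus strand.
PDGFRB: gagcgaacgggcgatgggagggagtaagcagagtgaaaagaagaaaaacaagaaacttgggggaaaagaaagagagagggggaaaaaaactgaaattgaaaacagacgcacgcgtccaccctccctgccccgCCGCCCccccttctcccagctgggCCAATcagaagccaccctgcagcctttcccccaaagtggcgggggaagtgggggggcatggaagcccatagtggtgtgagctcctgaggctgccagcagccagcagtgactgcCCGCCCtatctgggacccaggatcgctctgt
PDGFRA upstream: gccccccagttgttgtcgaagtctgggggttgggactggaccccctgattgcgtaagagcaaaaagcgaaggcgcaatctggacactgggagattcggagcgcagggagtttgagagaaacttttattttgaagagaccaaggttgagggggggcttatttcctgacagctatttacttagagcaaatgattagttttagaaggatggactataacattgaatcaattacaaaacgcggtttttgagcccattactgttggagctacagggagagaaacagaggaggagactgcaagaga
PDGFRA downstream: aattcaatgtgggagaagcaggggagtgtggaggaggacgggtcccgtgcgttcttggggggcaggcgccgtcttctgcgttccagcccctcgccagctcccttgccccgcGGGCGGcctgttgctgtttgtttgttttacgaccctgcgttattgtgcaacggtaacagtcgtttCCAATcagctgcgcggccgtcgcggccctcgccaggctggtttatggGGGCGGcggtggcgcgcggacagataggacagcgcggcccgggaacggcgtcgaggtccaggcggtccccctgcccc

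The PDGFRB window held 2 GC boxes and a CCAAT box whose first base lay at position -94 from the start site. Its GC content was 59.3%, beside a median of 58.7% over 35116 windows of the same length. The upstream PDGFRA window, with 47% GC, held neither motif, and the downstream window, with 66.7% GC, held 2 GC boxes and a CCAAT box at position -74. A TATAAA match on either strand was in none of the 3 windows. Of all windows, 45% held the GC box, 34.6% the CCAAT box and 11.5% TATAAA, and a match describes letters in the window, not binding. For the ligands, the 4 PDGFA windows held between 1 and 5 GC boxes and the PDGFD window held 1. PDGFB and PDGFC had no entry in the table used.

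Between 17304864 and 23132102 reads per library were counted on genes, and 3 reads, taken as the floor of detection, stood for 0.127 to 0.177 CPM (read counts scaled to a common library size, with TMM factors). The floors cover counting error only, since amplified copies of a molecule were not told apart. PELP1 itself counted 968, 1274 and 1069 reads in controls against 557, 637 and 712 after knockdown. The log2FC (log2 of PELP1-KD over control) of PELP1 was -0.97 with a standard error (SE) of 0.055 and an adjusted p-value of 1.48e-11 (quasi-likelihood test of edgeR), in the direction the labels give. The 4 markers of a mesenchymal TNBC line (VIM, CD44, CAV1 and AXL) summed to 5517 to 5603 CPM in controls and 4617 to 4653 CPM in PELP1-KD cells, with all 4 lower. The 8 luminal epithelial markers summed to 573 to 593 CPM in controls and 515 to 523 CPM in PELP1-KD cells, mostly from the keratins KRT8 (284 and 260 CPM) and KRT18 (281 and 242 CPM). EPCAM was at 9.46 and 9.57 CPM and GATA3 at 6.98 and 8.08 CPM, while ESR1 and PGR, the estrogen and progesterone receptor genes, had at most 2 reads in any library and the E-cadherin gene CDH1 at most 4. FOXA1, another luminal factor, had 11, 26 and 20 reads in controls and 7, 0 and 5 in PELP1-KD cells.

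Of the 6 family members, 5 had enough reads to be tested and PDGFRA did not. The receptor PDGFRB was 2.88-fold higher in PELP1-KD cells, while the 4 ligands differed by at most 22.4%. Past an adjusted p-value of 0.05 in the fit across all 12796 tested genes, 2 members were higher, PDGFRB and PDGFA, and 0 were lower. Over all tested genes, 22.7% were past this threshold as higher and 24.2% as lower. The median log2FC of the 5 tested members was 0.25, beside 0.0014 for all tested genes. In a bulk sample, a change in the number of expressing cells and a change in RNA per cell cannot be told apart.

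**Figure D1:**
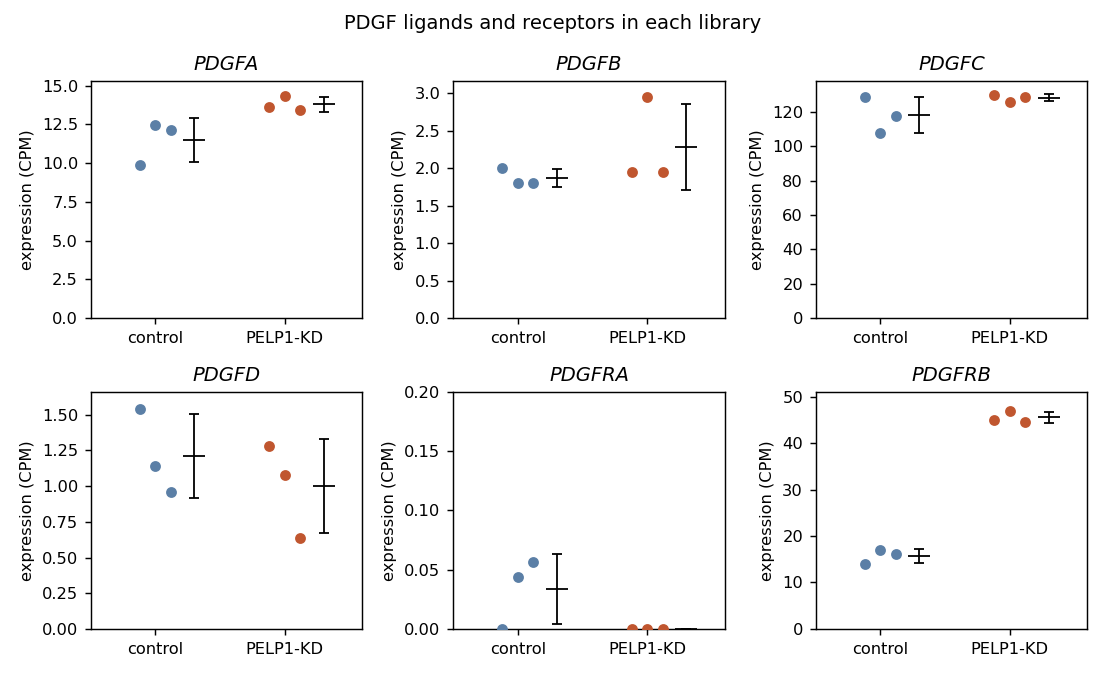
Expression in CPM (vertical axes, each starting at 0) of the 6 family members in the 3 control and 3 PELP1-KD libraries; points are libraries, and the bars beside them are the mean ± SD (n = 3). PDGFRB lies between 14.1 and 17.0 CPM in controls and between 44.7 and 47.0 CPM in PELP1-KD cells, PDGFA is also separated by group, and the other 4 overlap.

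PDGFRB, the beta receptor, is encoded on chromosome 5 of GRCh38 from 150113837 to 150155872 on the minus strand, with 23 exons in its longest GENCODE transcript. It had 238, 386 and 287 reads in control replicates 1, 2 and 3, which are 14.1, 17.0 and 16.2 CPM. In PELP1-KD replicates 1, 2 and 3 it had 878, 1003 and 1051 reads, or 45.0, 47.0 and 44.7 CPM. All PELP1-KD libraries thus lay far above all control libraries, with a gap much wider than the spread inside either group. Every PELP1-KD library lay above every control library in 27% of all tested genes. The group means were 15.7 CPM ± 1.5 (SD, n = 3) and 45.6 CPM ± 1.27 (SD, n = 3), a log2FC of 1.53 (SE 0.069, 95% interval 1.38 to 1.67). Among the tested genes, 83 had a higher log2FC. A log2FC above 1 together with an adjusted p-value below 0.05, which PDGFRB met, was reached in this direction by 1.9% of all tested genes. The log2FC of PDGFRB stayed between 1.45 and 1.59 under 13 other ways of fitting, and all 13 placed it past the threshold.

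PDGFRA, the alpha receptor, lies on chromosome 4 from 54229097 to 54298247 on the plus strand. The control replicates held 0, 1 and 1 of its reads and each PELP1-KD replicate held 0. All 6 libraries were below the floor of 3 reads, so PDGFRA was not detectable at this depth in either group and no fold is given. In GENCODE 15.8% of its exon bases are shared with an overlapping protein-coding locus on the same strand, AC058822.1. Reads on shared bases may have been counted on neither gene if the annotation used for counting, on hg19, held this locus. Whether it did was not examined. PDGFRB was thus the PDGF receptor gene whose RNA was detected.

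Markers of stromal cells that carry PDGF receptors were examined beside PDGFRB. The 7 fibroblast markers summed to 5.24 to 7.13 CPM in controls and 17.2 to 20.3 CPM in PELP1-KD cells. Nearly all of this was the collagen gene COL1A1, with 90, 161 and 91 reads in controls and 344, 423 and 397 in PELP1-KD cells (log2FC 1.61, adjusted p-value 3.23e-10). Among the scarce members, LUM had 0, 0 and 1 reads in controls and 5, 2 and 6 in PELP1-KD cells, and COL1A2 had 0, 0 and 1 against 2, 4 and 3. Both counted more in every PELP1-KD library, but these counts lie around the floor of 3 reads and neither gene was tested. COL3A1 had at most 3 reads and THY1 at most 1, and DCN and FAP had 0 in all 6 libraries. The 6 pericyte and smooth muscle markers summed to 11.4 to 12.8 CPM in controls and 13.4 to 14.5 CPM in PELP1-KD cells. CSPG4 and NOTCH3 rose (log2FC 0.70 and 0.73, adjusted p-values 6.47e-04 and 0.00175), RGS5 fell (log2FC -0.56, adjusted p-value 0.00117), and ACTA2 had a log2FC of -0.19 (adjusted p-value 0.594). DES, too scarce to test, went from 0, 1 and 2 reads to 3, 5 and 13, and MYH11 had at most 1 read. Endothelial markers summed to at most 0.676 CPM in controls and 1.17 CPM in PELP1-KD cells. Of these 4, VWF alone was tested, and it was higher. It had 1, 6 and 0 reads in controls, around the floor, and 12, 20 and 16 in PELP1-KD cells. Its log2FC of 2.56 ran from 2.04 to 4.42 with each library left out. PECAM1 and CDH5 had 7 reads or fewer, and TEK had 0. Megakaryocyte and platelet markers summed to at most 0.516 CPM in any library, PF4 had 0 reads in controls and 0, 3 and 3 in PELP1-KD cells, PPBP was at 0, and the leukocyte gene PTPRC had 0 reads throughout. The part of the markers that moved with PDGFRB in its difference was not tested.

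PDGFC, the ligand whose dimer is released in latent form, lies on chromosome 4 from 156760454 to 156971394 on the minus strand and spans 210.9 kb. It had 2178, 2445 and 2088 reads in the control replicates, which are 129, 108 and 118 CPM. In PELP1-KD cells it had 2532, 2687 and 3027 reads, or 130, 126 and 129 CPM. Control replicate 1 reached the PELP1-KD range, so the groups overlapped, and the PELP1-KD replicates were the tighter group, with an SD of 2.01 CPM against 10.6 CPM. PDGFC was 8.87% higher in PELP1-KD cells, a log2FC of 0.12 (SE 0.05, 95% interval 0.018 to 0.23), and did not pass the threshold. It lay near it, since 6 of 13 alternatives placed it past the threshold and 7 did not. Without control replicate 1 its log2FC was 0.19 and past the threshold, and without control replicate 2 it was 0.055 and not.

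PDGFA, the classical ligand of the alpha receptor, lies on chromosome 7 from 497258 to 520296 on the minus strand. It had 167, 283 and 216 reads in the control replicates, which are 9.87, 12.5 and 12.2 CPM. In the PELP1-KD replicates it had 265, 306 and 316 reads, or 13.6, 14.3 and 13.4 CPM. Every PELP1-KD library was above every control library, by a narrow margin over control replicates 2 and 3, while control replicate 1 stood lower. Such a separation with PELP1-KD above was found in 27% of all tested genes, and groups that do not overlap in either direction in 55%. The log2FC of PDGFA was 0.25 (SE 0.094, 95% interval 0.057 to 0.45), which is 19.2% higher. This call was not stable, as PDGFA missed the threshold in 5 of 13 alternatives. Without control replicate 1 its log2FC was 0.16, and it was 0.27, 0.22 and 0.27 without PELP1-KD replicates 1, 2 and 3, none of these past the threshold; DESeq2 gave 0.26, also short of it.

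PDGFB and PDGFD, the ligands that bind the beta receptor, were scarce. PDGFB, on chromosome 22 from 39223359 to 39244751 on the minus strand, had 34, 41 and 32 reads in controls and 38, 63 and 46 in PELP1-KD cells. These are 2.01, 1.80 and 1.80 CPM in controls and 1.95, 2.95 and 1.95 CPM in PELP1-KD cells, so that replicate 2 alone set the PELP1-KD mean apart. Its log2FC was 0.29, with a 95% interval from -0.14 to 0.72, and it was 0.066 without PELP1-KD replicate 2. PDGFD, on chromosome 11 from 103907186 to 104164379 on the minus strand, had 26, 26 and 17 reads in controls and 25, 23 and 15 in PELP1-KD cells. The groups overlapped, at 1.54, 1.14 and 0.957 CPM in controls and 1.28, 1.08 and 0.637 CPM in PELP1-KD cells. Its log2FC was -0.29, with a 95% interval from -0.89 to 0.31, and it was -0.033 without PELP1-KD replicate 3, -0.11 without control replicate 1 and -0.50 without PELP1-KD replicate 1. Of the PDGFD exon bases, 4.52% are shared with DDI1 on the opposite strand. As folds, these intervals run from 0.907 to 1.65 for PDGFB and from 0.539 to 1.24 for PDGFD.

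**Figure D2:**
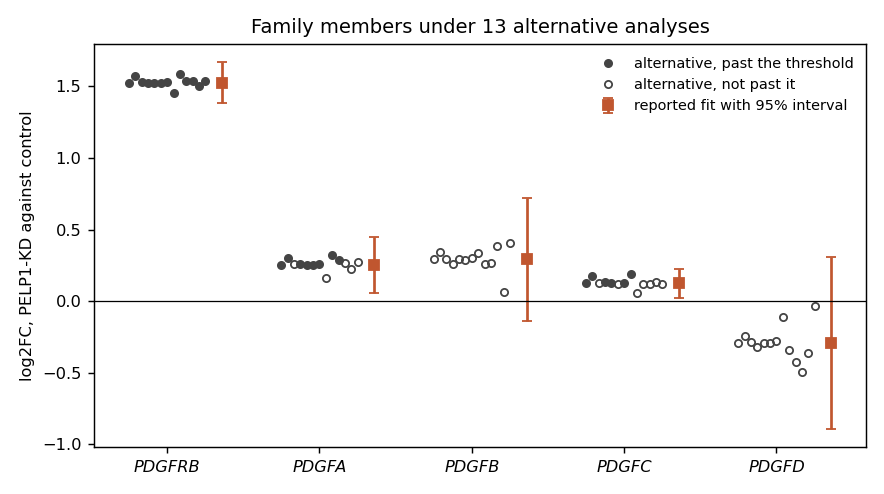
The log2FC of the 5 tested members (vertical axis, PELP1-KD against control) with its 95% interval as reported (squares) and under 13 alternative analyses (circles, filled where past an adjusted p-value of 0.05). PDGFRB stays between 1.45 and 1.59 and is filled throughout, PDGFA and PDGFC are filled in 8 and 6 of 13, and PDGFB and PDGFD in none.

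To compare levels between genes, CPM were divided by the exon length of each gene in kilobases (RPKM, with exon lengths from GENCODE on GRCh38). In control cells PDGFC led with 21.1 RPKM ± 1.9 (SD, n = 3), followed by PDGFA with 2.77 ± 0.34 and PDGFRB with 2.21 ± 0.21. PDGFRB was below PDGFA within each control library, but across libraries their ranges met, with the lowest PDGFA value at 2.379 RPKM and the highest PDGFRB value at 2.380 RPKM. PDGFB followed with 0.498 ± 0.032 and PDGFD with 0.284 ± 0.069, whose libraries did not overlap, and PDGFRA came last at up to 0.0058 RPKM. In PELP1-KD cells PDGFRB stood at 6.39 RPKM ± 0.18 (SD, n = 3), above PDGFA at 3.32 ± 0.12 in every library and below PDGFC at 22.9 ± 0.36. PDGFRB exceeded 26.6% of tested genes with a known length in control cells and 48.7% in PELP1-KD cells, and PDGFC exceeded 77.4% and 79.2%. The order of the 6 genes in each group was kept when the longest transcript replaced the summed exons and when each library was left out. The margins between genes depend on the length used. PDGFA has 4151 summed exon bases but 2305 in its longest transcript, and PDGFRB has 7137 and 5717. The near meeting of these 2 genes in controls thus holds for summed exons.

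PDGFC made up most of the ligand RNA in both groups. Of the summed RPKM of the 4 ligands, PDGFC held 85.5% ± 1.94 (SD, n = 3) in control and 84.6% ± 1.11 in PELP1-KD cells. PDGFA held 11.3% ± 2.06 and 12.3% ± 0.454, and PDGFB with PDGFD held little, at 2.02% and 1.15% in controls and 2.25% and 0.864% in PELP1-KD cells. For each ligand the libraries of both groups overlapped in this share. The level of PDGFRB per summed ligand level was 0.075, 0.104 and 0.0918 in controls, against 0.231, 0.244 and 0.233 after knockdown. The groups did not overlap in this ratio, which follows from the known difference of PDGFRB and is not a separate result. Its ligand sum is mostly PDGFC, so it is not a balance of PDGFRβ with the ligands that bind it chiefly.

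**Figure D3:**
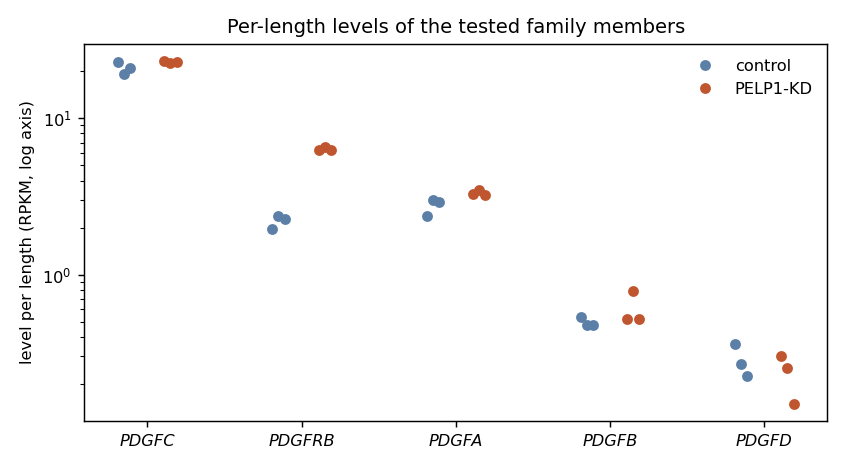
Level per exon length (RPKM, log axis) of the 5 tested members in each control and PELP1-KD library; points are libraries, and PDGFRA is left out because it was at or near 0. PDGFC is highest in both groups, and PDGFRB lies at 1.97 to 2.38 RPKM in controls, with its highest library level with the lowest PDGFA library, and at 6.26 to 6.59 RPKM in PELP1-KD cells, above all PDGFA libraries.

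Genes that act beside the family were taken from 6 lists with 121 different genes, of which 108 were tested. Of these, 23 rose and 51 fell, with a median log2FC of -0.084; over all tested genes 22.7% rose and 24.2% fell. The lists were written with earlier results of these data known, and their counts are a description. With scaling by library totals alone, 31 rose and 40 fell.

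Among 14 genes for ligand processing and binding, 11 were tested, 3 rose (27.3%) and 4 fell (36.4%), beside 22.7% and 24.2% of all tested genes. SPARC, a matrix protein that binds PDGF-B, had 86, 104 and 96 reads in controls and 267, 317 and 372 in PELP1-KD cells, with no overlap in CPM, and rose by a log2FC of 1.57 (SE 0.1, adjusted p-value 1.74e-10 by the same edgeR test). LRP1, an endocytic receptor that associates with PDGFRβ, rose from 13.3 CPM ± 0.742 (SD, n = 3) to 23.1 CPM ± 0.717, a log2FC of 0.79 (adjusted p-value 3.43e-08). FURIN, which cleaves the PDGF-A and PDGF-B precursors, rose by 0.49 on the log2 scale (adjusted p-value 8.81e-10). Of the proteases that activate PDGF-C and PDGF-D outside the cell, PLAT and PLAU fell and ST14 did not pass the test. PLAT, tissue plasminogen activator, went from 94.1 to 70.9 CPM, a log2FC of -0.41 (adjusted p-value 1.89e-07), and PLAU, urokinase, from 329 to 281 CPM, a log2FC of -0.23 (adjusted p-value 9.37e-06). The matriptase gene ST14 had at most 16 reads in any library (log2FC 0.73, adjusted p-value 0.145) and passed as higher without control replicate 3 (1.32, adjusted p-value 0.0265). NRP1, a co-receptor for PDGF and VEGF, fell from 126 to 83.9 CPM, a log2FC of -0.58 (adjusted p-value 2.38e-10). PCSK6, another furin-type protease, fell by a log2FC of -0.47 (adjusted p-value 0.0104), and this call was lost without control replicate 3 (log2FC -0.38, adjusted p-value 0.0595) or PELP1-KD replicate 1 (-0.40, adjusted p-value 0.0506).

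Among 16 related ligands and receptors, 10 were tested, 2 rose (20%) and 5 fell (50%), with a median log2FC of -0.13. The shares over all tested genes were 22.7% and 24.2%. KIT and FLT3, receptor kinases of the same structural class, had at most 1 read in any library. CSF1R, another of this class and the tested gene next to PDGFRB on the chromosome, had 56, 83 and 57 reads in controls and 61, 67 and 90 in PELP1-KD cells, a log2FC of -0.012 (SE 0.15, adjusted p-value 0.956). Its groups overlapped, and its sign turned with scaling by library totals (log2FC 0.037) and without control replicate 2 (0.051), PELP1-KD replicate 1 (0.039) or PELP1-KD replicate 2 (0.04). KDR, a VEGF receptor, fell from 41, 69 and 35 reads to 22, 25 and 32, a log2FC of -1.03 (SE 0.22, adjusted p-value 5.53e-04). Among the ligands, PGF (placental growth factor) and FLT3LG (the FLT3 ligand) rose by 0.80 and 0.79 on the log2 scale (adjusted p-values 4.37e-07 and 8.71e-06). VEGFA fell by a log2FC of -0.21 (adjusted p-value 2.72e-04), and VEGFC had a log2FC of -0.048 (adjusted p-value 0.619), whose sign turned with library totals (0.0018) and without PELP1-KD replicate 3 (0.035). KITLG, the KIT ligand, fell by a log2FC of -0.30 (adjusted p-value 0.0238), a call lost without control replicate 1 (-0.23, adjusted p-value 0.0705) and without PELP1-KD replicate 2 (-0.19, adjusted p-value 0.155).

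Signal transducers carry the message of the activated receptor into the cell. Of 42 tested transducers among 43 listed, 6 rose (14.3%) and 22 fell (52.4%), with a median log2FC of -0.12. The shares over all tested genes were 22.7% and 24.2%. The largest falls with groups that did not overlap were those of the adaptor CRK (118 to 76.6 CPM, log2FC -0.63, adjusted p-value 2.94e-10), the Ras inhibitor RASA1 (102 to 66.3 CPM, log2FC -0.62, adjusted p-value 2.07e-09) and the GTPase RAC1 (440 to 289 CPM, log2FC -0.61, adjusted p-value 1.78e-12). The rises were small. STAT5B rose by 0.22, the kinase AKT1 by 0.19 and the kinase SRC by 0.16 on the log2 scale (adjusted p-values 5.43e-04, 1.11e-04 and 0.0143), and SRC missed the threshold without PELP1-KD replicate 2 (log2FC 0.12, adjusted p-value 0.0822). All 15 negative regulators were tested, 0 rose (0%) and 8 fell (53.3%), beside the same shares of all tested genes. The Sprouty gene SPRY2 fell from 51.9 CPM ± 2.53 (SD, n = 3) to 33.3 CPM ± 1.75, a log2FC of -0.64 (adjusted p-value 2.05e-08). SPRED1, an inhibitor of Ras signaling, fell by a log2FC of -0.53 (adjusted p-value 2.79e-07), and PTPRJ, a phosphatase known to act on PDGFRβ, by a log2FC of -0.29 (adjusted p-value 2.79e-06).

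**Figure D4:**
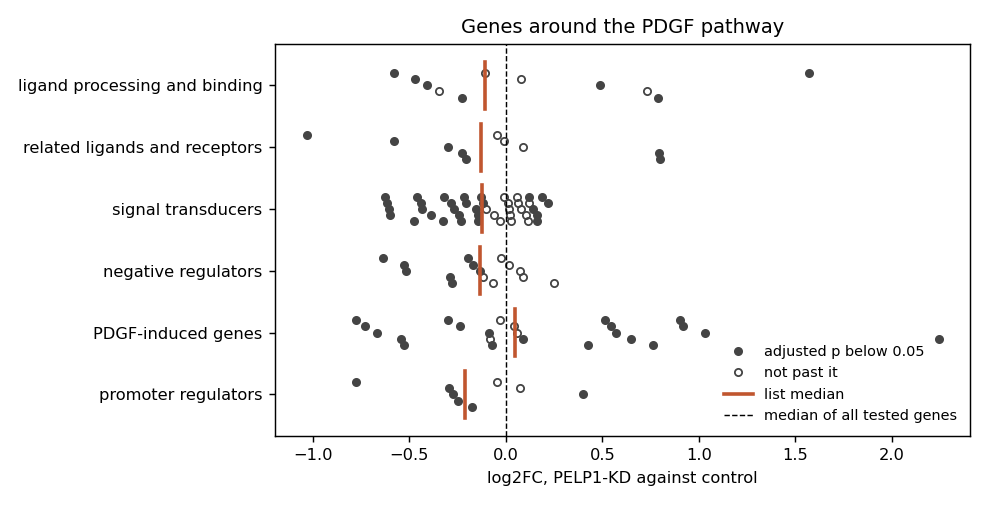
The log2FC (horizontal axis, PELP1-KD against control) of each tested gene in 6 lists around the PDGF pathway; filled points passed an adjusted p-value of 0.05, orange bars are list medians and the dashed line is the median of all tested genes. The medians lie between -0.21 and 0.049, and single genes reach from -1.03 (KDR) to 2.24 (PTGS2).

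Genes known to be induced by PDGF moved in both directions. Of 24 tested among 27 listed, 11 rose (45.8%) and 9 fell (37.5%), with a median log2FC of 0.049. The shares over all tested genes were 22.7% and 24.2%. PTGS2, the inducible cyclooxygenase, had 40, 40 and 28 reads in controls and 175, 194 and 207 in PELP1-KD cells, a log2FC of 2.24 (SE 0.14, adjusted p-value 9.88e-11). THBS1, a matricellular glycoprotein, rose by 1.03 and SPHK1, sphingosine kinase, by 0.92 on the log2 scale (adjusted p-values 1.05e-17 and 5.21e-10). The largest falls in this list were those of EGR1, HAS2 and FOS. EGR1 went from 99, 125 and 102 reads to 73, 64 and 76, a log2FC of -0.78 (adjusted p-value 8.04e-05). FOS had 24, 36 and 21 reads against 15, 17 and 25, a log2FC of -0.67 (adjusted p-value 0.0361). FOS did not pass without control replicate 1, control replicate 2, PELP1-KD replicate 1 or PELP1-KD replicate 2, with a log2FC of -0.66, -0.55, -0.58 and -0.60 (adjusted p-values 0.0619, 0.153, 0.112 and 0.108). HAS2, hyaluronan synthase, fell from 19.5 CPM ± 0.445 (SD, n = 3) to 11.7 CPM ± 0.215, a log2FC of -0.73 (adjusted p-value 1.47e-07).

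Of 8 factors known at PDGF and PDGF receptor promoters, all were tested, 1 rose (12.5%) and 5 fell (62.5%). The shares over all tested genes were 22.7% and 24.2%. SRF, serum response factor, rose from 166 CPM ± 5.45 (SD, n = 3) to 219 CPM ± 8.91, a log2FC of 0.40 (adjusted p-value 3.53e-08). SP1, which binds GC boxes like those in the windows above, fell by a log2FC of -0.28 (adjusted p-value 7.44e-05). WT1, a zinc finger factor known as a repressor of PDGFA, fell by a log2FC of -0.30 (adjusted p-value 0.00442), and EGR1, given above, belongs to this list as well.

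The genes whose profile over the 6 libraries was closest to each abundant member were found by the distance between mean-centred log2 CPM values. For PDGFRB these were KCNJ15, a potassium channel gene, at a distance of 0.18 (Pearson r = 0.998), and TAGLN, the smooth muscle gene transgelin, at 0.22 (r = 0.993). TAGLN went from 42.3 to 124 CPM, with a fitted log2FC of 1.55. KCNJ15 was scarce, at 0.604 and 2.07 CPM, where the prior count of 2 shrinks differences in log2 CPM. Its fitted log2FC was 1.76 (SE 0.24), so its place as the nearest depends on that prior count. The nearest profile to PDGFA was that of YIPF1, at a distance of 0.049, and the nearest to PDGFC were those of STK17B and GINS3, at 0.045 and 0.047. These genes were picked as the closest of all tested genes, so their small distances and high correlations were set by the choice. The likenesses run over 2 groups of 3 libraries, and they carry no p-value.

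The genes beside PDGFRB on the chromosome were described for their own differences. The 5 nearest tested genes on each side, in RefSeq order, had a median log2FC of 0.032, with 2 that rose and 3 that fell. Over all tested genes 22.7% rose and 24.2% fell, so these counts lie near the share of any tested genes. The gene on one side, CSF1R, is given above. The gene on the other side, ARSI, a sulfatase, rose by 1.01 on the log2 scale (SE 0.17, adjusted p-value 5.79e-05), and PDE6A, at the far end of the window, by 1.56 (SE 0.4, adjusted p-value 0.0032). PDE6A was scarce and did not reach 10 reads in every library. The remaining 7 neighbours lay between -0.15 and 0.42. Around the ligand genes, the median log2FC of the neighbours was -0.11 for PDGFA (6 neighbours), 0.25 for PDGFB, -0.035 for PDGFC and -0.19 for PDGFD (10 neighbours each). The neighbours were examined after the values of the members were seen.

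**Figure D5:**
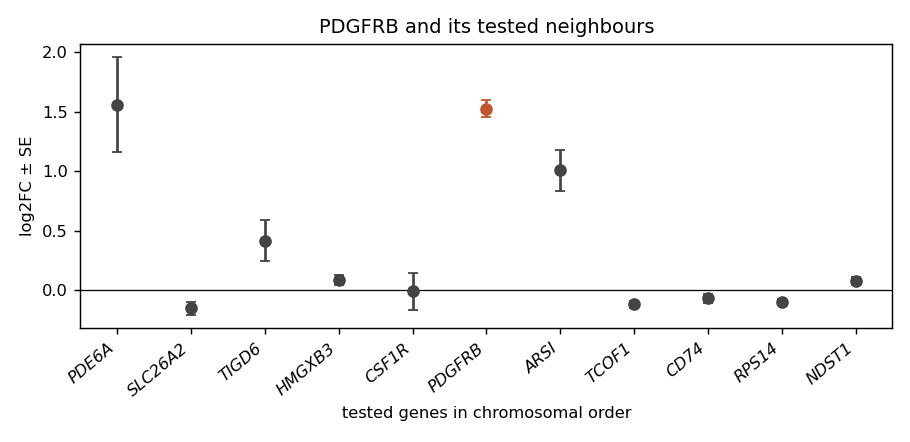
The log2FC ± SE (vertical axis, PELP1-KD against control) of PDGFRB (orange) and the 5 nearest tested genes on each side, in chromosomal order and not to distance. PDGFRB is at 1.53, CSF1R beside it at -0.012, and of the other neighbours ARSI (1.01) and the scarce PDE6A (1.56) stand above the rest.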

How the data were processed

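RNA-seq counts of 6 MDA-MB-231 libraries were used, 3 control shRNA and 3 PELP1-KD. The authors deposited raw read counts per gene symbol for each library; the submitters' processing notes name bcl2fastq, TopHat2, SAMtools and HTSeq and the build hg19, with no versions. The strand setting is not given in the sources used here. Reads without a unique alignment (32.5% to 32.9% of all reads), on no gene (7.64% to 8.19%) or ambiguous (0.657% to 0.688%) are closing totals of each table, counted on no gene, and were left out. Replicates of the same group differed beyond sampling noise (chi-square per degree of freedom 1.47 to 4.11). Control replicate 1 differed most from control replicates 2 and 3 (3.87 and 4.11, against 1.47 between those). PELP1-KD replicate 2 differed from PELP1-KD replicates 1 and 3 by 2.75 and 2.71, against 1.51 between those.

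Counts were analysed in R 4.3.3. Genes passing edgeR's filterByExpr (minimum count 10) were kept, scaled by TMM and tested by the quasi-likelihood test of edgeR 4.0.16, with Benjamini-Hochberg adjustment over all 12796 tested genes. Standard errors were taken as |log2FC| over the square root of the F statistic. Log2 CPM used a prior count of 2. Positions and exon lengths come from GENCODE 29 on GRCh38, and 11311 tested genes matched a length by symbol; VEGFD was matched as FIGF. Alternatives were RLE and total scaling, DESeq2 1.42.0, limma 3.58.1 voom, other filters, a replicate block and leaving out each library. Code was tested on simulated data.

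The members and all lists were chosen with earlier results of these data known. Named are the members, PELP1, per list up to 3 largest rises and falls with groups that do not overlap, a fixed set of relatives, and for each member with a mean count of at least 100 the 2 nearest profiles (1 of them, for PDGFA, is not reported here); markers and chromosomal neighbours are named besides, the neighbours after their values were seen. The fixed set is KIT, KDR, CSF1R, FLT3, VEGFA, VEGFC, NRP1, LRP1, PLAT, PLAU and FURIN, named whatever their values; ST14 was added after its values were seen.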

Additional observations from a re-analysis of the deposited data

How the results depend on the processing

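The number of family members higher past the threshold moved most, because PDGFA and PDGFC lay close to it. It was 2 in the analysis reported, 1 (PDGFRB) with DESeq2, and between 1 and 2 with each library left out (2 without control replicate 1, where PDGFC replaced PDGFA). It was 3, with PDGFC added, under RLE size factors, library totals, voom, no filter on low counts and the replicate block. No source says that the replicate numbers pair the libraries. Deviations of same-numbered libraries correlated at 0.039, 0.065 and -0.078, and higher correlations, up to 0.09, were found between other numbers. Correlations this small over 3 libraries per group cannot decide whether same-numbered libraries share a batch. With the replicate block 3140 genes were higher and 3335 lower (2904 and 3103 without it), and 24 pathway genes rose and 53 fell (23 and 51). Library totals raised the median log2FC of all tested genes from 0.0014 to 0.051 and gave 3817 higher and 2418 lower. With each library left out, 21 to 24 pathway genes rose and 40 to 47 fell. PELP1 stayed between -0.99 and -0.92 in log2FC. KITLG was also short of the threshold with library totals and DESeq2 (adjusted p-values 0.0546 and 0.0539), and FOS with DESeq2 (0.155). Of 52 genes followed through the alternatives, 2, CSF1R and VEGFC, changed sign, and neither passed the test in any alternative. CSF1R was at 0.037 and VEGFC at 0.0018 with library totals; with each library left out CSF1R ran from -0.12 to 0.051 and VEGFC from -0.12 to 0.035. The nearest profiles of PDGFA and PDGFC crossed the threshold in some alternatives. Depth limits PDGFRA, PDGFB and PDGFD. The causes were not tested.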
